A study of Mus musculus with 20 samples.

Results

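The genes described here lie in an 8 Mb interval of mouse chromosome 18, from 73000000 to 81000000 on mm10, that holds Myo5b and Haus1. They are the annotated genes overlapping the interval that had a sum of at least 100 raw counts over the 20 libraries. Pseudogenes were left out, as were ribosomal protein genes and nuclear genes of the respiratory chain and ATP synthase, recognised by symbol. This left 48 genes (43 protein-coding) of 16793 in the whole data set under the same filters. The interval was chosen because several of its genes differed between the genotypes in these data. Genotype differences within it are therefore given as a description, without a p-value for any single gene.

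Bulk RNA sequencing measured hippocampal transcripts of male mice aged 12 weeks, of strain label C57BL/6J, of 2 genotypes: wild-type, and knockout for Fkbp5, a co-chaperone of HSP90 that dampens glucocorticoid receptor activity. A single intraperitoneal dose of lipopolysaccharide at 3 mg/kg (LPS, an inflammatory component of bacterial walls) was given in one arm of each genotype and saline in the other, and tissue was taken on day 7. Each of the 4 groups so formed held 5 libraries. The labels do not describe the knockout allele, the line it was made in or the breeding of the controls, and they do not say that each library came from a separate animal, so p-values measure the spread between these libraries, which may be technical.

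Genes that sit next to each other need share no function, and this stretch holds a mixed set. MYO5B is an actin-based motor that carries recycling endosomes marked by RAB11, and in hippocampal neurons such endosomes bring AMPA receptors into dendritic spines. HAUS1 is a subunit of augmin, the complex that recruits gamma-tubulin to existing microtubules so that new ones branch from them. The same stretch encodes 3 proteins of TGF-beta signalling (Smad2, Smad4 and the inhibitory Smad7) and a pair of CpG-binding proteins (Cxxc1 and Mbd1).

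Library totals ran from 16652992 to 27230202 counts. Fkbp5, on chromosome 17, stood at 56.7 to 73.4 CPM (read counts put on a common depth by TMM scaling) in the 10 wild-type libraries and at 25.1 to 36.0 CPM in the 10 knockout libraries. The genotypes did not overlap, but the knockout libraries kept 46.5% of the wild-type level, and whether that transcript is altered cannot be read from counts per gene. The libraries formed a pair of sets present in every group: mitochondrially encoded genes took 4.66% to 5.68% of counts in replicates 1 and 2 (8 libraries) and 8.41% to 11.4% in replicates 3 to 5 (12 libraries). Of 8 hippocampal neuron markers, all 8 exceeded 1 CPM. One of them differed by genotype: C1ql2, a gene of dentate granule cells, averaged 187 CPM in wild-type and 93.7 in knockout (edgeR adjusted p = 0.00645). Prox1, another granule cell gene, had a log2 fold change of -0.00 ± 0.12 (SE). All 8 oligodendrocyte markers lay below 0 in the genotype comparison (median log2 fold change -0.31, none past the threshold), with summed levels of 3053 to 5052 CPM (saline) and 3489 to 6621 CPM (LPS) in wild-type and of 2456 to 3828 CPM (saline) and 2887 to 4500 CPM (LPS) in knockout. Likewise 0 of 6 endothelial markers lay above 0 (median -0.23), with sums of 146 to 242, 204 to 247, 129 to 194 and 142 to 237 CPM in the same order. Of 10 meningeal fibroblast markers 8 lay above 0 (median 0.22, 0 called), with sums of 66.6 to 141, 90.9 to 169.9, 88.6 to 211 and 100.1 to 141 CPM. Of 7 tested choroid plexus markers 4 lay above 0 (median 0.30, 0 called), with sums of 31.6 to 82.5, 26.5 to 90.9, 37.4 to 135.9 and 31.0 to 123 CPM. Of 5 blood markers 1 lay above 0 (median -0.27), and the haemoglobin gene Hba-a2 was called lower in knockout (-3.84 ± 0.81 SE on the log2 scale, edgeR adjusted p = 0.0367), with sums of 1.05 to 78.1, 4.58 to 85.6, 1.79 to 56.4 and 3.80 to 81.6 CPM over the list. No gene of these lists was at 0 in all libraries, and the part of these shifts in the differences below was not tested. In such bulk tissue, fewer cells of a type and less RNA per cell cannot be told apart.

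Along the interval, 5 genes differed between knockout and wild-type over both treatments at a Benjamini-Hochberg adjusted p under 0.05 in edgeR. Myo5b and Txnl4a were higher in knockout, and Hdhd2, Haus1 and Pstpip2 were lower. These were 5 of the 46 members that passed the filter on low counts, or 10.9%, beside 0.439% of all 16419 genes tested (72 genes). For higher genes the background was 0.292%, and for lower genes 0.146%. The interval was picked on this contrast, so the higher share describes the choice. The median member had a log2 fold change of 0.02 (0.08 without regard to sign), against -0.01 and 0.08 over all genes. An absolute log2 fold change of at least 0.5 was seen in 5 of 46 members (Myo5b, Hdhd2, Haus1, Pstpip2 and the barely expressed Hsbp1l1), beside 4.62% of all genes.

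The 5 genes were not one run of neighbours. From the start of Myo5b to the end of Txnl4a they span 5.78 Mb and 29 of the 48 members, counting both ends. Between Myo5b and Hdhd2 lie 2.17 Mb and 10 members, whose log2 fold changes ran from -0.10 to 0.47. Between Hdhd2 and Haus1 lie 0.782 Mb and 6 members, at -0.11 to 0.18. Haus1 and Pstpip2 are adjacent among the members, with annotated ends 0.016 Mb apart, and both were lower in knockout. Between Pstpip2 and Txnl4a lie 2.32 Mb and 8 members, at -0.24 to 0.31, and no member starts between 79 and 80 Mb. The 9 members before Myo5b ran from -0.23 to 0.18, and the 8 tested of 10 members after Txnl4a from -0.55 to 0.14. The called genes thus had uncalled members between them, apart from the adjacent Haus1 and Pstpip2. In chromosome order they were higher, lower, lower, lower and higher in knockout.

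**Figure D1:**
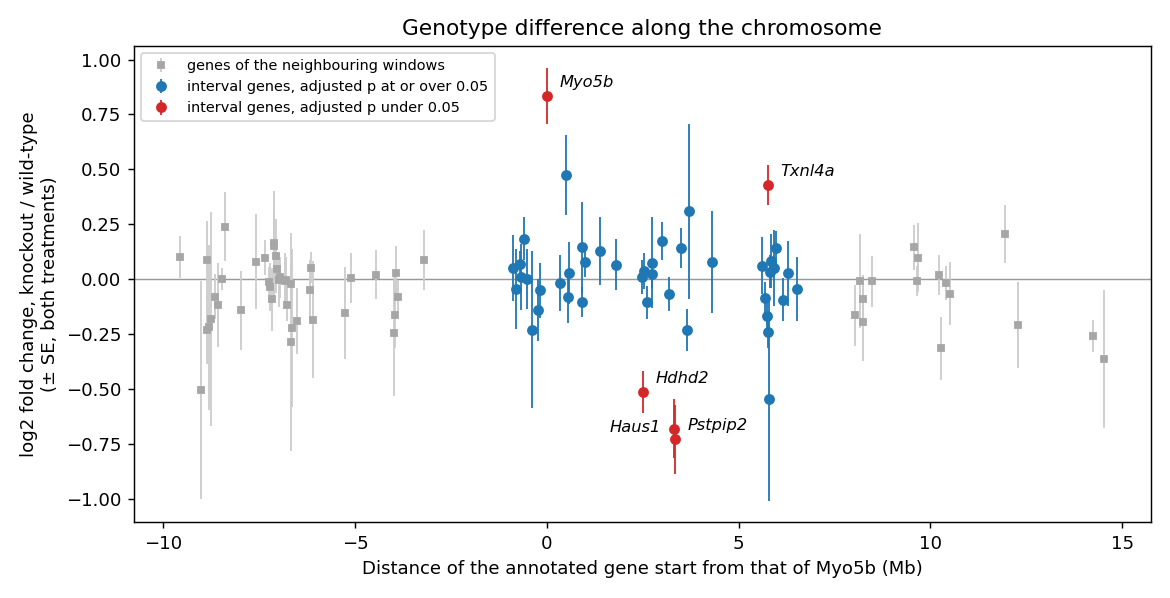
Log2 fold change of knockout against wild-type over both treatments (vertical axis, with SE) for the 46 tested members and for 56 tested genes of the flanking windows, by distance of the gene start from that of Myo5b in Mb (horizontal axis). The 5 genes in red stand at 0.84, -0.51, -0.68, -0.73 and 0.43 in chromosome order, while no gene of the grey flanking windows passed the threshold.

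No gene of the flanks was called, beside 0.439% of all genes, a share at which windows of this size would seldom hold a call. In the 8 Mb before the interval (65000000 to 72999999) 0 of 40 tested genes passed edgeR's threshold and 0 had an unadjusted p under 0.05. In the 8 Mb after it (81000001 to 89000000) 0 of 16 passed and 2 had an unadjusted p under 0.05. Over all tested chromosome 18 genes that are not members it was 0 of 416, with 11 under an unadjusted 0.05. These include the flanks and, inside the interval, Rpl17 and Atp5a1, and were not filtered by biotype or symbol. In the interval 8 of 46 members were under an unadjusted 0.05, beside 4.79% of all genes. The interval was picked on this contrast, so its difference from the flanks describes the choice. The nearest gene over the count minimum before the interval, the netrin receptor gene Dcc, stood at 31.2 CPM in wild-type and 33.1 in knockout (log2 fold change 0.09). The nearest after it, the galanin receptor gene Galr1, had 129 counts in all and was not tested.

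Myo5b (ENSMUSG00000025885, chromosome 18, 74440936 to 74771493, plus strand) was the member with the most counts and the one most raised in knockout. Its level was 75.5, 119.7, 75.9, 67.4 and 74.6 CPM in wild-type saline replicates 1 to 5, and 81.1, 67.6, 79.3, 67.8 and 73.3 CPM in wild-type LPS. In knockout it was 189.9, 152, 138, 102 and 130.1 CPM after saline and 105, 189.6, 142, 113 and 133 CPM after LPS. Apart from replicate 2 of wild-type saline, every wild-type library lay below every knockout library, and 7 of 10 knockout libraries exceeded that one too. Group means were 82.6 ± 21.0 CPM (SD, n = 5) and 73.8 ± 6.30 in wild-type saline and LPS, against 142 ± 32.3 and 137 ± 33.2 in knockout. The knockout level was 178% of wild-type, a log2 fold change of 0.84 ± 0.13 (SE) over both treatments, 0.78 ± 0.18 after saline and 0.89 ± 0.18 after LPS. Without wild-type saline replicate 2 the genotypes did not overlap.

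Hdhd2 (ENSMUSG00000025421, 76944092 to 76975307, plus strand), named for a hydrolase domain of the haloacid dehalogenase type, was lower in knockout. Its level was 17.6, 20.4, 16.8, 17.9 and 14.9 CPM in wild-type saline and 21.1, 21.8, 16.7, 14.0 and 15.4 CPM in wild-type LPS. In knockout it was 13.3, 14.1, 11.7, 12.1 and 10.2 CPM after saline and 14.9, 11.8, 11.8, 13.2 and 10.6 CPM after LPS. Within each library set the genotypes did not overlap, and over all libraries 8 of 10 knockout values lay below the lowest wild-type value. The knockout level was 70.0% of wild-type, with a log2 fold change of -0.51 ± 0.10 (SE), and of -0.51 ± 0.13 and -0.52 ± 0.13 after saline and LPS. A second annotated gene of the same symbol, which overlaps this one, held 6 counts in all.

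Haus1 (ENSMUSG00000041840, 77757567 to 77773886, minus strand) was expressed at a low level, with 46 to 131 raw counts per library. Wild-type saline libraries stood at 4.30, 4.57, 6.35, 4.85 and 5.69 CPM, and wild-type LPS libraries at 5.17, 4.83, 6.38, 5.34 and 5.81 CPM. The knockout libraries stood at 2.39, 3.32, 4.86, 2.94 and 2.88 CPM after saline and at 2.35, 3.12, 3.38, 4.46 and 3.51 CPM after LPS. Only knockout saline replicate 3 and knockout LPS replicate 4 reached into the wild-type range. The knockout level was 62.3% of wild-type (log2 fold change -0.68 ± 0.13 SE, with -0.65 ± 0.19 after saline and -0.71 ± 0.19 after LPS). Haus1 overlaps Atp5a1, an abundant gene of ATP synthase on the opposite strand, by 158 bases. Atp5a1 averaged 1090 CPM in wild-type and 1106 in knockout, a log2 fold change of 0.02 ± 0.22. The sources do not state that strand was used in counting, and without it reads of the shared bases cannot be assigned to either gene.

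Pstpip2 (ENSMUSG00000025429, 77789914 to 77882879, plus strand) encodes a membrane-bending F-BAR adaptor known from macrophages, whose loss in mice causes an autoinflammatory bone disease. Its level was 8.18, 9.96, 7.52, 5.68 and 5.69 CPM in wild-type saline and 9.82, 9.50, 5.93, 5.94 and 6.98 CPM in wild-type LPS. In knockout it was 6.01, 7.07, 3.27, 3.84 and 3.65 CPM after saline and 4.13, 5.04, 3.76, 4.23 and 4.39 CPM after LPS. Replicates 1 and 2 ran higher than replicates 3 to 5 in most groups: wild-type means were 9.37 and 6.29 CPM in the 2 sets, and knockout means 5.56 and 3.86 CPM. Within each set the genotypes did not overlap. Knockout libraries averaged 60.4% of the wild-type level, a log2 fold change of -0.73 ± 0.16 (SE), with -0.63 ± 0.22 after saline and -0.83 ± 0.22 after LPS. Of 7 microglial markers 1 lay above 0 and 0 were called, with a median log2 fold change of -0.06. Wild-type libraries summed to 282 to 519 CPM after saline and 304 to 552 CPM after LPS, and knockout libraries to 268 to 413 CPM and 291 to 491 CPM, with no marker at 0. Their part in the Pstpip2 difference was not tested.

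Txnl4a (ENSMUSG00000057130, 80206795 to 80225855, plus strand) encodes a small protein of the U5 snRNP, part of the spliceosome, and was higher in knockout. It stood at 14.8, 15.4, 22.5, 19.8 and 20.2 CPM in wild-type saline and at 18.9, 14.2, 21.8, 20.2 and 20.9 CPM in wild-type LPS. In knockout it stood at 21.6, 22.2, 25.4, 26.5 and 25.2 CPM after saline and at 24.1, 24.9, 25.8, 29.1 and 29.3 CPM after LPS. The lowest knockout values came from replicates 1 and 2, and within each library set every knockout library lay above every wild-type library. The knockout level was 135% of wild-type, a log2 fold change of 0.43 ± 0.09 (SE), with 0.38 ± 0.13 after saline and 0.47 ± 0.13 after LPS.

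**Figure D2:**
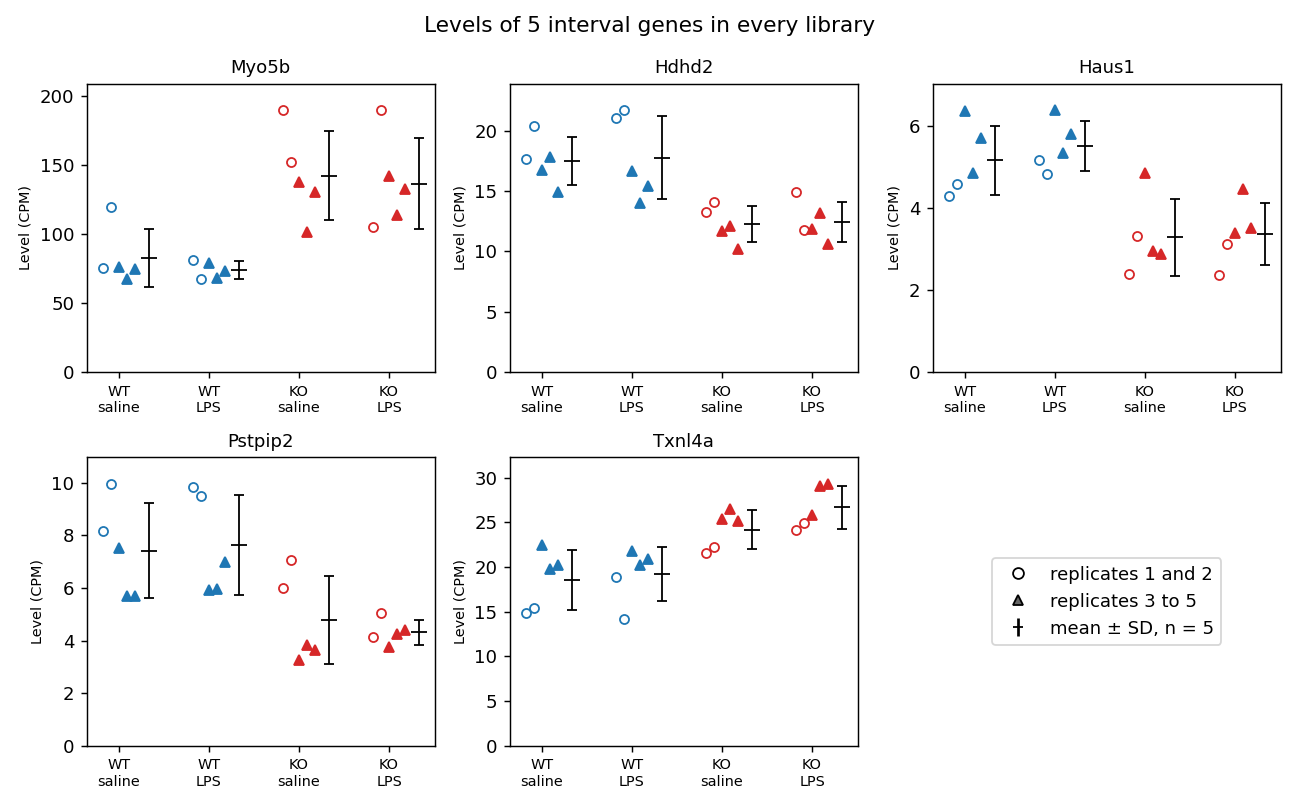
Level in CPM (vertical axis, from 0) of Myo5b, Hdhd2, Haus1, Pstpip2 and Txnl4a in each of the 20 libraries by group (horizontal axis), with wild-type in blue, knockout in red, replicates 1 and 2 as open circles, replicates 3 to 5 as triangles, and mean ± SD (n = 5) in black. Myo5b shows a single wild-type library, at 119.7 CPM, inside the knockout range of 102 to 189.9 CPM.

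The annotated start of Txnl4a lies just inside Gm16286 (ENSMUSG00000024571, 80206765 to 80212741), a predicted protein-coding gene on the same strand, and the spans of these 2 genes overlap by 5947 bases. Gm16286 went the other way. It stood at 85.3, 71.9, 92.0, 95.3 and 94.8 CPM in wild-type saline and at 84.3, 68.6, 85.5, 91.5 and 97.7 CPM in wild-type LPS. In knockout it stood at 62.2, 64.7, 69.6, 76.7 and 78.1 CPM after saline and at 71.0, 70.1, 82.4, 78.0 and 81.0 CPM after LPS. The genotypes did not overlap in replicates 3 to 5 but did in replicates 1 and 2, and the log2 fold change of -0.24 ± 0.07 (SE) did not pass the threshold. With the replicate number as a block it did, as the sixth member called over both treatments (6 members, beside 1.07% of all genes). How the authors' counting divided reads between these genes is not given in the sources used here, so each level on its own is uncertain. Added up, the pair averaged 106 ± 12.3 CPM (SD, n = 10) in wild-type and 98.8 ± 9.06 in knockout, with a log2 fold change of -0.10 ± 0.07 that was not called. The share of the pair's counts assigned to Txnl4a was 17.4% ± 1.74 (SD, n = 5) in wild-type saline and 18.3% ± 1.20 in wild-type LPS. In knockout it was 25.6% ± 0.828 after saline and 25.8% ± 1.29 after LPS. All 10 wild-type libraries lay between 14.8% and 20.3% and all 10 knockout libraries between 23.9% and 27.2%, so this share separated the genotypes in all 20 libraries. It was chosen after the values were seen.

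**Figure D3:**
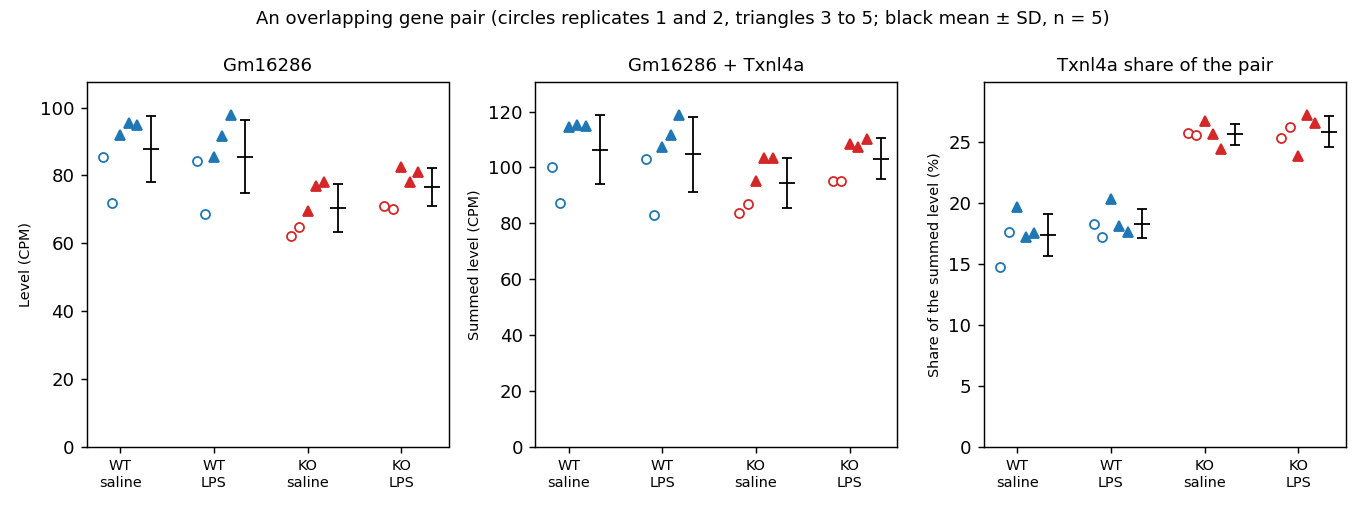
Level of Gm16286, summed level of Gm16286 and Txnl4a (both in CPM), and Txnl4a share of the sum in percent (vertical axes, from 0) in each library by group (horizontal axis), with replicates 1 and 2 as circles, replicates 3 to 5 as triangles and mean ± SD (n = 5) in black. The share runs from 14.8% to 20.3% in wild-type and from 23.9% to 27.2% in knockout, while the summed levels overlap.

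The 41 tested members that were not called ran from -0.55 to 0.47 in the genotype comparison. Those that belong to the gene lists are given first. Among signalling genes, Smad4, the common partner of receptor-activated SMADs, had a log2 fold change of -0.04 ± 0.18 (SE). Smad2 stood at 0.07 ± 0.12 and Smad7, the feedback inhibitor, at -0.10 ± 0.07. Nfatc1, a transcription factor released by calcineurin, stood at -0.09 ± 0.10. Of the chromatin genes, Cxxc1, which brings the SET1 methyltransferase to unmethylated CpG islands, stood at -0.14 ± 0.14 and Mbd1, which binds methylated CpG, at -0.05 ± 0.12. Atp9b, a P4-ATPase of the Golgi, stood at 0.03 ± 0.15 and the katanin-like Katnal2 at 0.04 ± 0.08. None of these 8 genes passed the threshold.

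The members on either side of the first and the last called gene differed in size. Mbd1 precedes Myo5b, and the mitochondrial thiolase gene Acaa2, which follows it, had a log2 fold change of -0.02 ± 0.13 (SE). Gm16286, at -0.24, precedes Txnl4a, and Hsbp1l1, which follows it, had -0.55 ± 0.46 at 163 counts in all. At the ends of the interval, Mex3c, an RNA-binding ubiquitin ligase gene, had 0.05 ± 0.15, and Gm27239, a long noncoding RNA with 145 counts, was not tested. Among uncalled members the highest value was that of the endothelial lipase gene Lipg, at 0.47 ± 0.18 and a mean of 2.03 CPM in wild-type and 2.80 in knockout. Slc14a1, a urea transporter, stood at -0.23 ± 0.10 with 21.1 and 17.9 CPM. Lipg and Slc14a1 were picked after their values were seen.

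Levels per exon length varied widely within the interval. The most abundant member was BC031181, at 63.5 CPM per kb over all libraries, followed by Gm16286 at 26.0, Ier3ip1 at 14.8, the silent potassium channel subunit gene Kcng2 at 14.6 and Smad4 at 14.6. Myo5b stood at 11.1 CPM per kb, while Txnl4a stood at 4.92, Pstpip2 at 2.58, Hdhd2 at 2.18 and Haus1 at 0.603. Of the 5 most abundant, Gm16286 and Smad4 are given above, BC031181 had a log2 fold change of -0.08 ± 0.12 (SE), Ier3ip1 0.01 ± 0.08 and Kcng2 0.08 ± 0.12. In all, 32 members exceeded 10 CPM in every group mean and 6 stayed under 1 CPM. The member nearest the count minimum was Gm26676 with 142 counts, and the nearest gene below it was Gm6133 with 87.

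Taken one treatment at a time, the genotype contrast called no member. By edgeR it was 0 of 46 after saline, beside 0.171% of all genes, and 0 of 46 after LPS, beside 0.146%. Unadjusted, 6 members had a p under 0.05 after saline (2.67% of all genes) and 6 after LPS (3.27%). DESeq2 called 1 member after each treatment (0.292% and 0.323% of all genes), which was Myo5b, and limma-voom called 6 and 2 (2.2% and 0.378%). With the replicate number as a block, edgeR called 5 members after saline (0.359% of all genes) and 5 after LPS (0.384%). These were Myo5b, Hdhd2, Pstpip2 and Txnl4a in both, with Gm16286 after saline and Haus1 after LPS. Leaving out single libraries gave 1 member in place of 0, again Myo5b, in some fits. After saline this was without wild-type saline replicate 2 (24 genes called over all genes). After LPS it was without wild-type saline replicate 2 (25 genes), knockout LPS replicate 1 (30), or knockout saline replicate 1 (24) or 4 (23). The 5 genes were called on the average of both differences, which favours the same sign after each treatment, and all 5 had it. Of the 46 tested members, 31 had the same sign after both, a count not set beside all genes.

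**Figure D4:**
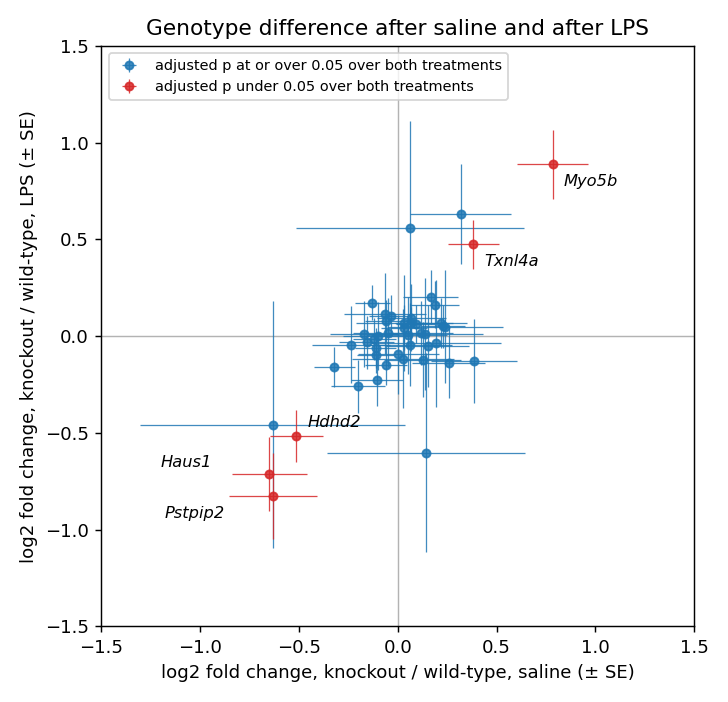
Log2 fold change of knockout against wild-type after saline (horizontal axis) and after LPS (vertical axis) for the 46 tested members, with SE bars. The 5 genes called on the average of both, in red, have the same sign after each, which that choice favours. Myo5b stands at 0.78 and 0.89 and Pstpip2 at -0.63 and -0.83.

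The number of calls depended on single libraries. Over the 20 fits that each left out 1 library, 2 to 5 members were called, while 54 to 81 genes were called over all genes. Myo5b and Hdhd2 were called in 20 of 20, Haus1 in 14, and Pstpip2 and Txnl4a in 6 each. The count fell to 2 without wild-type LPS replicate 5, knockout saline replicate 4 or knockout saline replicate 5. It fell to 3 without replicate 1, 2, 3 or 5 of wild-type saline, replicate 1 of wild-type LPS, replicate 3 of knockout saline, or replicate 2, 3, 4 or 5 of knockout LPS. Without the 3 libraries with the highest score for thalamus markers (wild-type LPS replicates 1 and 4 and knockout LPS replicate 1), a choice made after seeing the data, 2 were called, Myo5b and Hdhd2 (0.337% of all genes).

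Library by library, 0 of 48 members had all 10 knockout values on one side of all 10 wild-type values, beside 0.152% of all genes. In replicates 1 and 2 alone (4 against 4) 7 members did, beside 4.61%: Lipg, Ier3ip1 and Txnl4a higher in knockout, and Hdhd2, Haus1, Pstpip2 and Hsbp1l1 lower. In replicates 3 to 5 alone (6 against 6) it was again 7, beside 3%: Myo5b, Txnl4a and Atp9b higher, and Cxxc1, Hdhd2, Pstpip2 and Gm16286 lower. Txnl4a, Hdhd2 and Pstpip2 were separated in both sets, beside 0.311% of all genes. The share of all genes separated with a library left out is not given here. Leaving out wild-type saline replicate 2 separated Myo5b over all remaining libraries. Without wild-type LPS replicate 4, Hdhd2 was separated only barely: 14.927 CPM in wild-type saline replicate 5 against 14.925 in knockout LPS replicate 1.

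Whether the injection changed the interval genes, or changed the genotype difference, was open to a test, because neither contrast had been used to choose them. No member was called for LPS against saline over both genotypes in edgeR (0 of 46, beside 0.0426% of all genes), in wild-type (0, beside 0%) or in knockout (0, beside 0.00609%). DESeq2 and limma-voom called 0 members in each as well. Unadjusted, 1, 1 and 0 members had a p under 0.05, beside 2.71%, 2.07% and 1.75% of all genes. The median absolute log2 fold change for LPS was 0.05 over the members and 0.07 over all genes. The smallest p over both genotypes was that of Katnal2, with a log2 fold change of -0.18 ± 0.08 (SE, edgeR unadjusted p = 0.047, adjusted p = 1.00). Nfatc1 followed at 0.19 ± 0.10 and the membrane protein gene Pqlc1 at 0.12 ± 0.08.

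For the interaction of genotype and LPS, edgeR, DESeq2 and limma-voom each called 0 members, edgeR called 0 of all genes (0%), and 1 member had an unadjusted p under 0.05, beside 1.11% of all genes. That member was St8sia5, a sialyltransferase of ganglioside synthesis. It stood at 50.6, 45.5, 49.5, 45.4 and 42.2 CPM in wild-type saline and at 37.3, 38.3, 45.7, 38.8 and 42.7 CPM in wild-type LPS. In knockout it stood at 44.7, 38.8, 46.5, 41.5 and 41.9 CPM after saline and at 37.7, 46.0, 44.5, 49.1 and 51.3 CPM after LPS. The groups overlapped in each genotype. Its interaction was 0.30 ± 0.13 on the log2 scale (SE, edgeR unadjusted p = 0.0292, adjusted p = 1.00). Zbtb7c, a zinc finger gene, followed at -0.52 ± 0.31, and the polarity gene Pard6g at -0.40 ± 0.26.

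For the 5 genes that differed by genotype, the interaction was small beside its error. It was 0.10 ± 0.25 (SE) for Myo5b, -0.00 ± 0.19 for Hdhd2, -0.06 ± 0.27 for Haus1, -0.19 ± 0.31 for Pstpip2 and 0.09 ± 0.18 for Txnl4a. Their LPS effects over both genotypes were -0.11 ± 0.13, 0.02 ± 0.10, 0.06 ± 0.13, -0.05 ± 0.16 and 0.10 ± 0.09 in the same order. Errors of this size leave room for an LPS effect that these libraries could not detect.

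The partners of the interval's genes elsewhere in the genome were examined in 7 lists, and none outside the interval was called in the genotype contrast. Over all genes 0.439% were called, a share at which lists this short would seldom hold a call. Of the myosin V and Rab11 recycling list, 0 of 14 tested genes outside the interval were called (edgeR), with a median log2 fold change of 0.01. Myo5a, the abundant neuronal class V myosin, averaged 266 CPM in wild-type libraries ± 79.3 (SD, n = 10) and 290.3 ± 48.3 in knockout, or 18.8 CPM per kb beside 11.1 for Myo5b. The smallest p in that list were those of Myo5c, at -0.91 ± 0.59 (SE) and under 1 CPM, and of Rab11fip2, an adaptor between RAB11 and MYO5B, at 0.12 ± 0.09. Of the augmin and gamma-tubulin list, 0 of 17 were called, with a median of 0.04. The augmin subunit genes Haus6 and Haus7 had the smallest p there, at -0.18 ± 0.10 and 0.28 ± 0.18, while the other 5 subunits outside the interval lay between -0.06 and 0.13.

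Of 23 tested TGF-beta and SMAD genes outside the interval, 0 were called, with a median of 0.02. The receptor genes Tgfbr2, at -0.22 ± 0.07 (SE, edgeR adjusted p = 0.374), and Acvr2a, at 0.17 ± 0.06 (adjusted p = 0.728), had the smallest p. The COMPASS and CpG-binding list gave 0 of 14 (median 0.04), with Ash2l at 0.06 ± 0.05 and Mbd2 at -0.08 ± 0.08. The P4-ATPase list gave 0 of 12 (median -0.02), with Atp10d at 0.94 ± 0.42 (edgeR adjusted p = 0.956) and Atp8a2 at 0.13 ± 0.10. Calcineurin and NFAT genes gave 0 of 11 (median -0.02), with Ppp3cc, a catalytic subunit, at 0.15 ± 0.07 and Rcan3 at -0.13 ± 0.07. Microtubule-severing genes gave 0 of 8 (median -0.09), with Katnbl1 at -0.14 ± 0.08. An unadjusted p under 0.05 was seen for 3 genes of the TGF-beta list, 1 of the P4-ATPases and 0 in each of the myosin, augmin, COMPASS and calcineurin lists. Myo5b and Haus1, both from inside the interval, were the members of these lists that were called. The lists were chosen with earlier results of these data known, so this describes the choice.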

How the data were processed

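Per the labels, the authors made libraries from 1 µg of total hippocampal RNA with NEBNext Ultra reagents. The submitters' processing notes name Trimmomatic 0.38, FastQC, MultiQC, featureCounts 1.6.0 and the mm10 build. The aligner, annotation release, strand setting and treatment of reads shared by genes are not given in the sources used here. The authors deposited raw counts for 55536 genes in 20 libraries, and no sample column was left unused. All gene identifiers (100%) matched GENCODE M21, which gave symbols, positions and biotypes.

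Counts were fitted with edgeR 4.0.16 in R 4.3.3 (TMM, filterByExpr by group, robust quasi-likelihood fit and F test) over all genes and all 20 libraries, with 16419 genes tested and a Benjamini-Hochberg threshold of 0.05. The genotype contrast over both treatments is the average of the differences after saline and after LPS. CPM use TMM library sizes. Levels per kb divide by merged exon length. The scripts were tested on simulated data.

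The interval holds 139 annotated genes: 41 pseudogenes (0 over the count minimum), Rpl17 and Atp5a1, which were left out by symbol, 48 genes below the minimum (20 of them at 0) and the 48 members. Gm26676 and Gm27239 failed the filter on low counts. The members and lists were chosen with earlier results of these data known. Named members are Myo5b and Haus1, those called over both treatments, the members next to the first and last of these, the first and last member, members of the 7 lists, the 3 with the smallest p for LPS and for the interaction, and the 5 with the highest level per length. Outside the interval, the genes with the smallest p of each list are named, apart from an item that is not reported here.

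Alternatives were DESeq2 1.42.0 (Wald test), its size factors in edgeR, limma-voom 3.58.1 with quality weights, no filter, a filter of 1 CPM in at least 5 libraries, a block for the replicate number, a term for the library set, each set alone, only the groups compared, a sum of at least 1000 counts, and leaving out each library. Those added after seeing the data were leaving out the 3 libraries highest in thalamus markers, separation within each set, and summing Gm16286 with Txnl4a. Deviations from group means correlated at 0.323 to 0.880 (median 0.527) over the 30 pairs of libraries with the same replicate number. For other numbers of the same set they correlated at 0.197 to 0.734 (median 0.538, 48 pairs), and across sets at -0.747 to -0.170 (72 pairs). Same-numbered pairs all exceeded 0.1, so blocked counts stand beside those they change. Other pairs of the same set exceeded 0.1 too, so these values do not show a pairing by number. The labels do not say what a number stands for.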

Additional observations from a re-analysis of the deposited data

Results flagged for a closer look

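Of 100 groups of 5 libraries checked over the named members, 8 held a library that stood apart by Dixon's criterion (a gap above 0.71 of the group's range). Chance gives about 1 in 20 for independent values of 1 normal population. The groups here mix the library sets and reuse the same 20 libraries, so the 8 cannot be judged against that rate. Myo5b was 119.7 CPM in wild-type saline replicate 2, with the other 4 libraries at 67.4 to 75.9. Cxxc1 was 49.2 CPM in wild-type saline replicate 1, with the others at 28.9 to 31.1. Pard6g was 7.42 CPM in wild-type LPS replicate 1, with the others at 4.31 to 5.16. Knockout LPS replicate 1 stood apart for 3 genes: Mex3c at 25.0 CPM (others 46.0 to 53.0), Smad2 at 20.2 CPM (others 33.3 to 36.1) and Atp9b at 71.8 CPM (others 41.3 to 47.2). That library and wild-type LPS replicate 1 had the highest thalamus marker scores of all 20. Nfatc1 was 7.63 CPM in knockout LPS replicate 3, with the others at 5.36 to 6.02. BC031181 was 129 CPM in knockout LPS replicate 5, with the others at 105 to 111.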

How the results depend on the processing

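The count of members called by genotype over both treatments was 5. It was 8 with limma-voom (3.26% of all genes), 0 in replicates 1 and 2 alone (0.0564%), 12 in replicates 3 to 5 alone (where 8.1% of all genes were called), 2 without the 3 libraries highest in thalamus markers, and 2 to 5 when single libraries were left out. DESeq2 gave 5 (0.743% of all genes), its size factors 5 (0.445%) and the 1 CPM filter 5 (0.451%). No filter gave 4 (0.202%) and the library set term 6 (0.926%). With the replicate block it was 6, with Gm16286 added (1.07% of all genes). After saline the count of 0 became 1 with DESeq2, 6 with limma-voom and 5 with the replicate block. It became 5 with the library set term (0.286%) and 7 in replicates 3 to 5 (3.22%). With single libraries left out it was 0 to 1, beside 19 to 31 genes called over all genes. After LPS the count of 0 became 1 with DESeq2, 2 with limma-voom, 1 without a filter (0.0714%) and 5 with the replicate block. It became 5 with the library set term (0.329%) and 2 in replicates 3 to 5 (0.76%). With single libraries left out it was 0 to 1, beside 16 to 30 genes called over all genes. Members with separate genotypes numbered 0, and 7 in replicates 1 and 2, 7 in replicates 3 to 5 and 3 in each set. The number was 1 without the thalamus libraries and 0 to 1 with single libraries left out. Those last counts have no share over all genes beside them, and fewer libraries make separation easier to reach. The interaction and LPS counts were 0 under every alternative run, the replicate block included. None of the 5 called genes changed sign over the alternatives on its own counts. The summed counts of Txnl4a and Gm16286 had a log2 fold change of -0.10. Txnl4a made up 17.8% of that sum in wild-type and 25.7% in knockout. Of 19 other named members tested, 12 took either sign over the alternatives, such as Hsbp1l1 (-1.18 to 0.47), Ier3ip1 (-0.17 to 0.31), BC031181 (-0.22 to 0.23) and Atp9b (-0.14 to 0.20). Under the other alternatives the log2 fold changes stayed between 0.76 and 0.92 for Myo5b, -0.56 and -0.46 for Hdhd2, -0.77 and -0.63 for Haus1, -0.82 and -0.66 for Pstpip2 and 0.36 and 0.57 for Txnl4a. The cause of these changes was not tested. Haus1 and Pstpip2 had low counts (1710 and 2507 in all), whose part in the changes was not tested.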

Other observations

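Both genes of the interval that were left out by symbol were abundant and differed little between genotypes. Rpl17, a ribosomal protein gene, averaged 314 CPM in the wild-type libraries ± 92.1 (SD, n = 10) and 321 ± 67.2 in knockout, a log2 fold change of 0.03 ± 0.17 (SE). Atp5a1, which lies between Haus1 and Pstpip2, stood at 1090 ± 388 CPM in wild-type and 1106 ± 302 in knockout. Neither was called. Some uncalled members differed more between the library sets than between genotypes: Mex3c averaged 37.1 CPM in wild-type replicates 1 and 2 and 55.3 in wild-type replicates 3 to 5, against 41.7 and 55.4 in knockout.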
